A study of Mus musculus with 8 samples.

Results

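The genes described here are 9 components of the Hedgehog pathway, namely Gli1, Gli2, Gli3, Ptch1, Smo, Sufu, Hhip, Gas1 and Boc. They are identified by gene symbol, and each of the 9 had a row among the 40840 gene rows of every library. Their transcripts were measured by RNA-seq in primary mouse myofibroblastic hepatic stellate cells (pMF-HSCs), in 4 control cultures and 4 cultures exposed to OSMI-1, an inhibitor of O-GlcNAc transferase (OGTi). All cells came from wild-type male C57BL/6J mice aged 15 to 18 weeks, were sorted by the autofluorescence of their retinol stores, and turned into myofibroblasts on plastic in medium with serum over 7 days. OGTi cultures then received OSMI-1 at 50 µM and control cultures its solvent DMSO, both for 24 h. The study's own text, however, describes its control pMF-HSCs as non-treated and names no solvent for them. Treated and control cultures of the same replicate number belong to the same experiment, so that each number forms a pair. How many mice each culture was made from is not given in the sources used here.

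Hedgehog ligands (SHH, IHH and DHH) bind the receptor PTCH1 with the help of the co-receptors BOC, CDON and GAS1. Ligand binding relieves the block that PTCH1 places on SMO, and SMO acts at the primary cilium to free GLI transcription factors from their inhibitor SUFU. GLI2 is chiefly an activator and GLI3 chiefly a repressor, whereas GLI1 is itself a target of the pathway, as are PTCH1 and HHIP, a ligand-binding decoy. In injured liver, Hedgehog ligands are known as signals to stellate cells during their conversion into myofibroblasts.

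Libraries held from 30068900 to 37372400 expected counts, a read estimate per gene that need not be a whole number. The 10 stellate and myofibroblast markers summed to 3612 to 6512 TPM in control and 2998 to 7041 TPM in OGTi, TPM being a transcript level scaled by length and depth. Most of this came from Acta2, Tagln and Col1a1, while Lhx2 had no more than 4.45 TPM in any library. Of these 10 markers 2 were called, both lower (20%, against 10.2% of all genes). They were Lrat, the enzyme that stores retinol as esters, and Pdgfrb, the PDGF receptor of stellate cells, with log2 fold changes of -1.78 and -1.68 (edgeR adjusted p of 0.00232 and 0.00154). Lrat had 12.1 ± 5.13 TPM in control and 2.62 ± 0.281 TPM in OGTi (SD, n = 4). The 8 that did not pass had log2 fold changes of -0.85 (Col1a1), -0.84 (Hand2), -0.72 (Col3a1), -0.33 (Lhx2), -0.19 (Des), 0.04 (Reln), 0.05 (Acta2) and 0.53 (Tagln). Without a cell count, fewer cells of a type and less RNA per cell cannot be told apart in these bulk libraries.

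Of the 5 genes described below as lower in OGTi, 4 (Gli3, Ptch1, Smo and Hhip) had a start region in the RefSeq promoter table. These windows are shown because the 4 transcripts were all called lower. Whether they vary together was not tested. Each holds 300 bases on the strand of the gene, 5′ to 3′, and was placed on GRCm39 by an exact match of the sequence, which was the only match on its chromosome. Gli3 lies at chr13:15638058-15638357 on the plus strand and Ptch1 at chr13:63713500-63713799 on the minus strand. Smo lies at chr6:29735246-29735545 on the plus strand and Hhip at chr8:80784588-80784887 on the minus strand. The Gli3 and Ptch1 windows lie inside the annotated genes, whose outermost starts are further upstream. Capitals mark the TEAD motif CATTCC.
Gli3: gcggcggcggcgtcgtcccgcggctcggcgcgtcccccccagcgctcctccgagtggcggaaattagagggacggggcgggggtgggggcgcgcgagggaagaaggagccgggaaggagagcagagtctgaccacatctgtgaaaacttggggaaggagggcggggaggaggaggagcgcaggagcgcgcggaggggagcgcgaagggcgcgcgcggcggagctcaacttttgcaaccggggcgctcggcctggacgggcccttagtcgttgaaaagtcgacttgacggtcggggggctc
Ptch1: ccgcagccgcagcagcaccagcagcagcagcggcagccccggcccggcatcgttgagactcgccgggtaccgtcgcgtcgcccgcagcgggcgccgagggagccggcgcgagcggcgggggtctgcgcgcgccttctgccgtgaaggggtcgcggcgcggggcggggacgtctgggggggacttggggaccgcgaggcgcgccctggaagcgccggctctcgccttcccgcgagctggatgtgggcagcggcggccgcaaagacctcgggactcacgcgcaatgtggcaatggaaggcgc
Smo: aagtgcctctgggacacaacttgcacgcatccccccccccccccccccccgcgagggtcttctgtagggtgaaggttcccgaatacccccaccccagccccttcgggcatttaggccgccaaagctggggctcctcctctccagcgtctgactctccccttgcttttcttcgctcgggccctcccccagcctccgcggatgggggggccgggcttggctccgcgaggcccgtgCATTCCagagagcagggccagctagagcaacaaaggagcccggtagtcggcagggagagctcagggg
Hhip: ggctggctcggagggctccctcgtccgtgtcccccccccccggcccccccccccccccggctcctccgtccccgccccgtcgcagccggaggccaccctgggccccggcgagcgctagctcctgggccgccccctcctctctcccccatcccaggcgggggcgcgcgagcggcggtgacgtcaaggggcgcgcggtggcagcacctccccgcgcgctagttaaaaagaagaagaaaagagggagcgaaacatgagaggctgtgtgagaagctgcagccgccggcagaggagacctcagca

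The 4 windows were rich in G and C, with 71.0% (Gli3), 76.3% (Ptch1), 67.7% (Smo) and 73.7% (Hhip), against a median of 52.7% over all 32851 windows of that table. Those of the members that were not called had 56.3% (Sufu), 62.3% (Gas1) and 67.3% (Gli2). Gas1 and Gli2 had only 21 and 15 counts over all 8 libraries, so that a missing call says little of them. The GLI motif GACCACCCA, searched on both strands, was in none of the 7 member windows and in 0.253% of all windows. The TEAD motif, searched in the same way because the study concerned TEAD4, was in the Smo window only and in 14.7% of all windows. A match is a description of the letters and not a site, and the absence of these letters in a short window says nothing of the factor. Gli1 and Boc were not found in the table.

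To define how Hedgehog components responded to inhibition of O-GlcNAc transferase, OGTi and control libraries were compared in a paired edgeR model fitted over all genes. Hhip, Gli3, Ptch1, Smo and Boc fell in OGTi, by 5.73, 3.17, 3.15, 2.29 and 2.21 times, respectively. Sufu did not pass the threshold, and Gas1, Gli1 and Gli2 were close to the limit of detection in both groups. Thus 5 of the 8 members that could be tested were called lower (Benjamini-Hochberg adjusted p of at most 0.05) and 0 were called higher, whereas 10.2% of all 19963 genes tested were called lower and 18.4% were called in either direction. Values of scaled counts did not overlap between groups in 4 members (Hhip, Gli3, Ptch1 and Smo), against 23.5% of all genes tested. The number of members called was 3 without replicate 1, 2 without replicate 3 and 2 without replicate 4. Over all genes, these fits called 3124, 1905 and 1956 in either direction, against 3666 with all 8 libraries. Gli1, with 4 counts in all, was the member left out by the minimum of 10 counts.

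**Figure D1:**
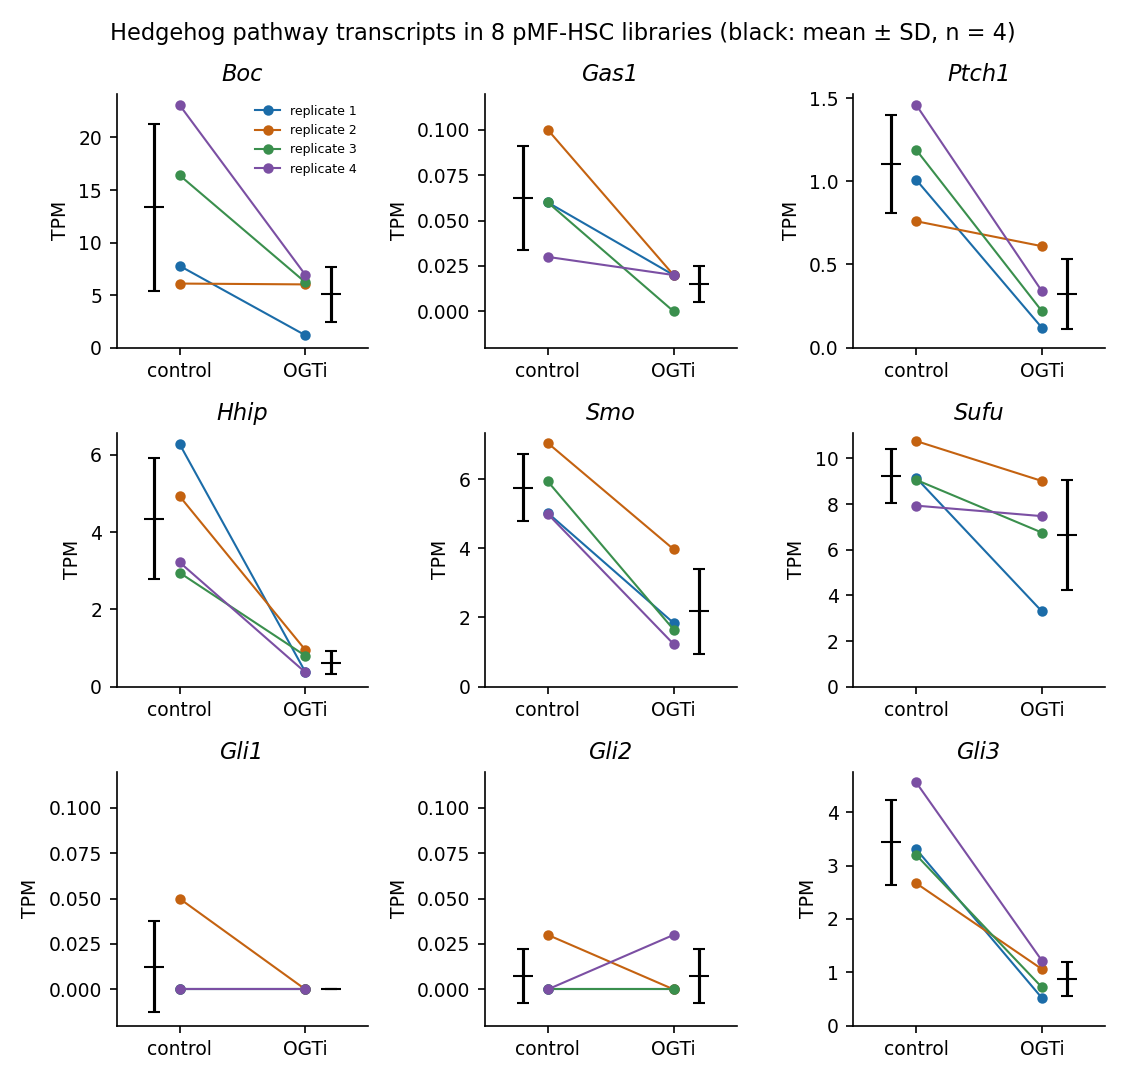
Level of each of the 9 members (vertical axis, TPM, with a separate scale per gene) in control and OGTi cultures. Lines join the libraries of a pair and black bars give the mean ± SD (n = 4). Hhip, Gli3, Ptch1 and Smo lie lower in all 4 OGTi libraries than in any control library, while Gli1, Gli2 and Gas1 stay at or below 0.1 TPM.

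At the level of ligand reception, Boc (chromosome 16, 44305290 to 44379432, minus strand), an immunoglobulin-family co-receptor, had the highest mean level of the members in control, although Sufu was higher in control replicates 1 and 2. Its levels in control replicates 1 to 4 were 7.79, 6.10, 16.4 and 23.1 TPM, and in OGTi replicates 1 to 4 they were 1.18, 6.02, 6.22 and 6.93 TPM. Control replicates 3 and 4 were thus far above control replicates 1 and 2, OGTi replicate 1 was far below the other OGTi libraries, and the groups overlapped. edgeR gave a log2 fold change of -1.14 ± 0.34 SE (adjusted p = 0.0421). The pairs differed, with log2 differences of -2.18, 0.08, -1.02 and -1.44 for pairs 1 to 4, so that pair 2 showed no decrease. The call was lost without the pairing (adjusted p 0.165), with each library's trend on gene length removed (0.0538), and without replicate 1 (0.122), 3 (0.109) or 4 (0.166). Adjusted p for Boc spanned 0.00218 to 0.166 among all settings tried.

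Gas1 (chromosome 13, 60322219 to 60325179, minus strand), a membrane-anchored co-receptor, had 4, 7, 4 and 2 counts in control replicates 1 to 4 and 2, 1, 0 and 1 counts in OGTi replicates 1 to 4. These values correspond to at most 0.10 TPM. With so few counts the log2 fold change of -1.78 ± 1.31 (SE) was imprecise (edgeR adjusted p 0.396). Cdon, the co-receptor closest to Boc, was also scarce. It had 0.155 ± 0.0342 TPM in control and 0.160 ± 0.0440 TPM in OGTi (SD, n = 4). edgeR gave 0.45 ± 0.47 SE on the log2 scale (adjusted p = 0.572). Boc was therefore the only one of the 3 co-receptors above 1 TPM in any library.

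Ptch1 (chromosome 13, 63656142 to 63721412, minus strand) encodes the ligand receptor. It had 1.01, 0.76, 1.19 and 1.46 TPM in control replicates 1 to 4 and 0.12, 0.61, 0.22 and 0.34 TPM in OGTi replicates 1 to 4. The highest OGTi value, that of replicate 2, was still below the lowest control value, which came from the same pair. In edgeR the Ptch1 log2 fold change was -1.66 ± 0.41 SE (adjusted p = 0.0187). The decrease in pair 2 was small, with a log2 difference of -0.20 against -2.5, -2.0 and -1.8 in pairs 1, 3 and 4. The call was lost at adjusted p = 0.0727 without replicate 1, 0.0795 without replicate 3 and 0.0878 without replicate 4, and kept without replicate 2, where the log2 fold change was -2.11 (adjusted p = 0.00645). Its adjusted p spanned 0.000343 to 0.0878 among all settings tried.

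Hhip (chromosome 8, 80692480 to 80784658, minus strand), which sequesters Hedgehog ligands at the cell surface, fell most. It had 6.28, 4.93, 2.95 and 3.22 TPM in control replicates 1 to 4 and 0.38, 0.95, 0.80 and 0.37 TPM in OGTi replicates 1 to 4. Every OGTi library was below every control library. edgeR gave a log2 fold change of -2.52 ± 0.34 SE (adjusted p = 0.00115). Log2 differences were -3.54, -2.21, -1.64 and -2.60 in pairs 1 to 4. The call was kept in all 12 alternatives, with a log2 fold change between -2.81 and -1.69.

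Smo (chromosome 6, 29735407 to 29762532, plus strand) encodes the transducer that PTCH1 holds in check. It had 5.02, 7.04, 5.93 and 4.99 TPM in control replicates 1 to 4 and 1.84, 3.97, 1.65 and 1.23 TPM in OGTi replicates 1 to 4. Replicate 2 gave the highest value in each group, and the groups did not overlap. Smo was called lower in edgeR, at a log2 fold change of -1.20 ± 0.26 SE (adjusted p = 0.0111). The call was lost without replicate 3 (adjusted p 0.0700) and without replicate 4 (0.0615). The adjusted p of Smo spanned 0.000489 to 0.0700 among all settings tried. Smo shares exonic sequence on its own strand with the annotated gene Gm13717, so that reads of that region could belong to either.

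Sufu (chromosome 19, 46385324 to 46477243, plus strand), the cytoplasmic inhibitor of GLI proteins, had 9.15, 10.8, 9.06 and 7.93 TPM in control replicates 1 to 4. In OGTi replicates 1 to 4 it had 3.30, 9.01, 6.75 and 7.47 TPM. The low value of OGTi replicate 1 was the lowest. In TPM, OGTi replicate 2 lay within the control range, and OGTi replicates 3 and 4 lay just below it. In scaled counts, OGTi replicates 2, 3 and 4 (865, 754 and 803) lay within the control range of 696 to 961, and only OGTi replicate 1 (426) lay below it. edgeR gave a log2 fold change of -0.23 ± 0.25 SE (adjusted p = 0.581), and its sign turned in 2 alternatives.

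Among the GLI factors, Gli3 (chromosome 13, 15637809 to 15904611, plus strand) was the member detected at a measurable level. It had 3.31, 2.67, 3.20 and 4.56 TPM in control replicates 1 to 4 and 0.52, 1.06, 0.72 and 1.22 TPM in OGTi replicates 1 to 4. The groups were clearly apart, with the highest OGTi library under the lowest control library. Gli3 was called lower in edgeR, by a log2 fold change of -1.67 ± 0.25 SE (adjusted p = 0.00181). Log2 differences of -2.06, -1.23, -1.75 and -1.58 in pairs 1 to 4 were the most even among the 5 members that fell. It was called in all 12 alternatives, with a log2 fold change between -1.89 and -1.24.

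Gli1 (chromosome 10, 127165751 to 127177865, minus strand), the usual transcriptional readout of Hedgehog activity, had 4 counts in control replicate 2 and 0 in each of the other 7 libraries. A count of 0 allows up to 3 counts, that is between 0.0772 and 0.0967 CPM (counts scaled to a common library size) in these 7 libraries. Gli2 (chromosome 1, 118761858 to 118982598, minus strand) had 0, 5, 1 and 0 counts in control replicates 1 to 4 and 0, 0, 1 and 8 counts in OGTi replicates 1 to 4. Its log2 fold change of 0.45 ± 2.21 (SE) had an edgeR adjusted p of 0.919. A difference between groups in either gene was not detectable at this depth, and any expression in control was low compared with Gli3, which had 437 to 669 counts there.

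**Figure D2:**
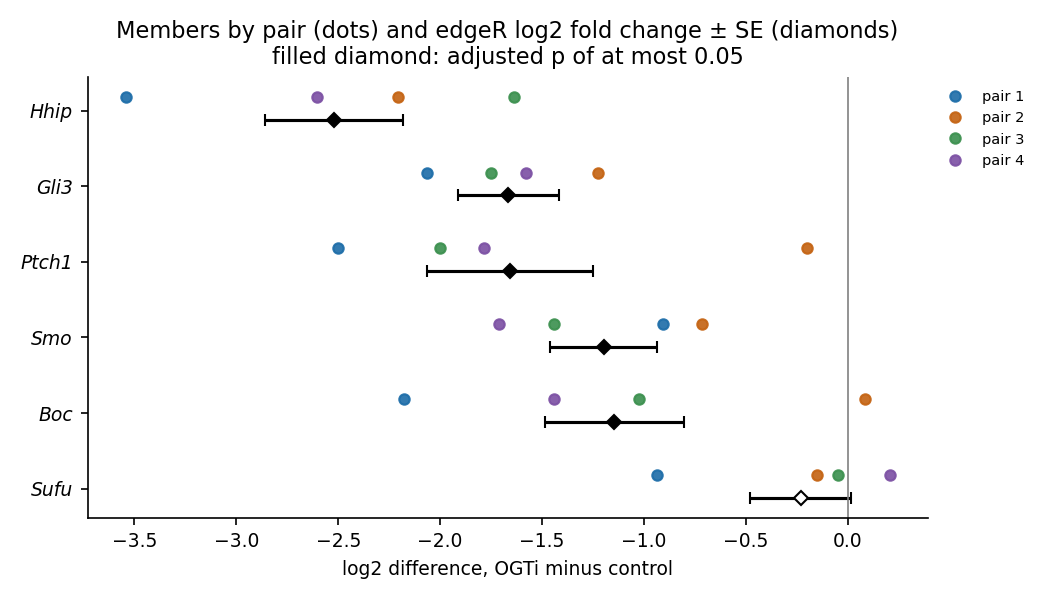
Log2 difference between OGTi and control (horizontal axis) in each of the 4 pairs (dots) for the 6 members with at least 800 counts over the 8 libraries. Diamonds give the edgeR log2 fold change ± SE and are filled where the adjusted p is at most 0.05. Hhip, Gli3, Ptch1 and Smo are below 0 in every pair, while Boc in pair 2 and Sufu in pair 4 are not.

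Per length, the members of control cultures ranked from Boc (13.3 ± 7.91 TPM, SD, n = 4) through Sufu (9.22 ± 1.16), Smo (5.74 ± 0.967), Hhip (4.34 ± 1.56) and Gli3 (3.44 ± 0.80) to Ptch1 (1.10 ± 0.295). Neighbours in this order were not always separated. Boc exceeded Sufu in 2 of 4 control libraries, Smo exceeded Hhip in 3 and Hhip exceeded Gli3 in 2. Sufu exceeded Smo, and Gli3 exceeded Ptch1, in all 4. In OGTi cultures Sufu came first (6.63 ± 2.41 TPM) and exceeded Boc (5.09 ± 2.63) in all 4 libraries. Smo (2.17 ± 1.23) exceeded Gli3 (0.880 ± 0.318) in all 4 libraries, Gli3 exceeded Hhip (0.625 ± 0.295) in 3, and Hhip exceeded Ptch1 (0.323 ± 0.212) in all 4. Hhip thus went from above Gli3 on average to below it.

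Since a ratio between genes of the same library does not depend on how libraries are scaled, levels in TPM were also set against Sufu, as a description with no test. Gli3 over Sufu was 0.248 to 0.575 in control and 0.107 to 0.163 in OGTi. Hhip over Sufu was 0.326 to 0.686 in control and 0.0495 to 0.119 in OGTi. The ranges of Ptch1 over Sufu came close to each other without overlap, with 0.0706 to 0.184 in control and 0.0326 to 0.0677 in OGTi. Those of Smo and of Boc overlapped, with 0.549 to 0.655 against 0.165 to 0.558 for Smo and 0.567 to 2.91 against 0.358 to 0.928 for Boc. The ratio of Ptch1 to Smo, receptor to transducer, averaged 0.201 (SD 0.0754) in control cultures against 0.157 (SD 0.0881) in OGTi cultures, and these means differ by less than either SD.

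The genes whose log2 CPM over the 8 libraries was most like that of Gli3, among 11052 genes with a mean log2 CPM of at least 1, were Ank3 (Pearson r 0.991), Mettl14 (0.985), Adora2a (0.985), Gprc5c (0.984) and Rsrc1 (0.984). These libraries share the treatment contrast, and the values are given as a description. Ank3, Adora2a, Gprc5c and Rsrc1 fell in OGTi, with log2 fold changes of -1.73, -2.85, -1.95 and -0.91 (edgeR adjusted p of 0.00138, 0.000512, 0.000676 and 0.0164). Mettl14 had a log2 fold change of -0.57 and an adjusted p of 0.0954.

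Other genes of the pathway were examined in 5 lists covering ligands and their release, other receptor-level proteins, transduction between SMO and GLI, often-cited targets, and intraflagellar transport, the traffic that builds the primary cilium. In all, 14 of the 80 genes tested in these lists were called, each of them lower. Of all genes tested 10.2% were called lower, and of the 11053 with a mean log2 CPM of at least 1 it was 14.8%. Across the lists the number called was 8 without replicate 3 and 22 with limma on TPM. Over all genes, 3666 were called in either direction in the reported fit, 1905 without replicate 3, and 4651 or 4709 with limma (1 or 0.1 added). Of the ligand side, 0 of 7 genes tested were called. Shh had 0 counts in all 8 libraries and Ihh at most 16 counts in any library. Dhh was the ligand with the most counts. It had 2.58, 1.74, 2.29 and 0.02 TPM in control replicates 1 to 4 and 0.83, 0.49, 0.24 and 0.26 TPM in OGTi replicates 1 to 4. Control replicate 4 was far below the other controls, and Dhh did not pass (log2 fold change of -1.09 ± 0.73 (SE), edgeR adjusted p 0.350). Without replicate 4 it reached -1.85 (adjusted p = 0.0370), and among all settings tried the adjusted p spanned 0.0370 to 0.792. Of the other receptor-level genes, 0 of 9 were called. DESeq2 also called 0 genes of either list, limma with 0.1 added to TPM called 1 of the receptor level, and edgeR called 1 of the ligand side with no low-count filter or without replicate 4. In edgeR, the unadjusted p was under 0.05 for Hhat (0.0345), which attaches the lipid of the ligands, and for Gpc5 (0.0445), a glypican, both named after their values were seen. They went in opposite directions, with log2 fold changes of -0.82 for Hhat and 4.76 ± 1.96 (SE) for Gpc5 (adjusted p of 0.123 and 0.146). Gpc5 was close to the limit of detection, with 3, 1, 2 and 7 counts in OGTi replicates 1 to 4 and 0 in every control library.

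Between SMO and GLI, 3 of 24 genes tested (12.5%, against 10.2% of all genes) fell and 0 rose, with a median log2 fold change of -0.46 against 0.01 over all genes tested. Among the 11053 genes with a mean log2 CPM of at least 1, 14.8% were called lower, so 12.5% is not above the share of well-expressed genes. The number of these 24 genes called was 7 with library totals alone, 5 with DESeq2 and 8 or 7 with limma on TPM (1 or 0.1 added). Over all 19963 genes tested, the same fits called 4167, 4859 and 4651 or 4709 in either direction, against 3666 in the reported fit. Evc, part of the ciliary complex that binds SMO, had 2.52, 5.28, 5.44 and 1.63 TPM in control replicates 1 to 4 and 0.41, 1.94, 0.54 and 0.61 TPM in OGTi replicates 1 to 4. It overlapped between groups through control replicate 4 and OGTi replicate 2, and fell by 1.87 ± 0.34 SE on the log2 scale (edgeR adjusted p = 0.00461). Iqce, which anchors that complex at the cilium, fell by 1.42 ± 0.29 on the log2 scale (SE, edgeR adjusted p 0.00874). Kif7, a ciliary kinesin that regulates GLI proteins, fell by 1.56 ± 0.45 on the log2 scale (SE, edgeR adjusted p 0.0388). Iqce lost its call without replicate 3 (0.0558). Kif7 lost its call without pairing (0.0655), with the length trend removed (0.106), and without replicate 1 (0.0747), 2 (0.123) or 4 (0.132). Evc2, the partner of Evc, named here after its value was seen, had a log2 fold change of -0.02 and an adjusted p of 0.964.

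Of the often-cited targets, 8 of 18 genes tested (44.4%, against 10.2% of all genes) fell and 0 rose, with a median log2 fold change of -0.82. The number called was 4 without replicate 3, a fit that called 1905 of all genes in either direction, against 3666 in the reported fit. Mycn, a growth-promoting transcription factor, and the cyclins Ccnd1 and Ccnd2, which drive entry into the cell cycle, fell with log2 fold changes of -2.25, -2.22 and -0.96 (edgeR adjusted p of 0.00101, 0.00218 and 0.00702). Foxm1, a transcription factor of mitosis, had a log2 fold change of -1.62 (adjusted p = 0.00925) and lost its call without pairing (0.102) and without replicate 3 (0.0508) or 4 (0.0511). Its groups overlapped, with 125.1 scaled counts in OGTi replicate 2 against 107.7 in control replicate 3. Bcl2, an inhibitor of apoptosis, and Bmp4, a secreted growth factor, had log2 fold changes of -1.85 and -1.22 (adjusted p of 0.00336 and 0.0118). Bmp4 lost its call without replicate 3 (0.0838) or 4 (0.0615). These genes answer to many signals beside GLI proteins. The forkhead genes Foxf1 and Foxf2, named here after their values were seen, had positive log2 fold changes of 0.58 and 1.2 that did not pass (adjusted p of 0.192 and 0.214).

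Of the intraflagellar transport genes, 3 of 22 (13.6%, against 10.2% of all genes) fell and 0 rose, with a median log2 fold change of -0.11. This share is not above the 14.8% called lower among the 11053 genes with a mean log2 CPM of at least 1. DESeq2 and both limma fits called 5 of these transport genes. Over all genes they called 4859 (DESeq2) and 4651 or 4709 (limma, 1 or 0.1 added) in either direction, against 3666 in the reported fit. The 3 that fell were Wdr35 (log2 fold change of -1.94 ± 0.35, SE, edgeR adjusted p 0.00454), Wdr19 (-1.40 ± 0.36, adjusted p 0.0216) and Ttc21b (-1.25 ± 0.33, adjusted p 0.0274). Wdr35 had 11.3 to 13.6 TPM in control and 0.98 to 6.39 TPM in OGTi. Wdr19 overlapped between groups, with 158.6 scaled counts in OGTi replicate 2 against 137.6 in control replicate 1. Wdr19 lost its call without pairing (0.126) and without replicate 1 (0.0503) or 3 (0.0907), and Ttc21b without replicate 1 (0.0820) or 4 (0.132). All 3 encode subunits of the retrograde complex IFT-A. Other subunits of it did not pass, namely Ift140 (log2 fold change of 0.75, adjusted p 0.0891), Ift122 (-0.74, adjusted p 0.142) and Ift43 (-0.24, adjusted p 0.522), and are named here after their values were seen.

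**Figure D3:**
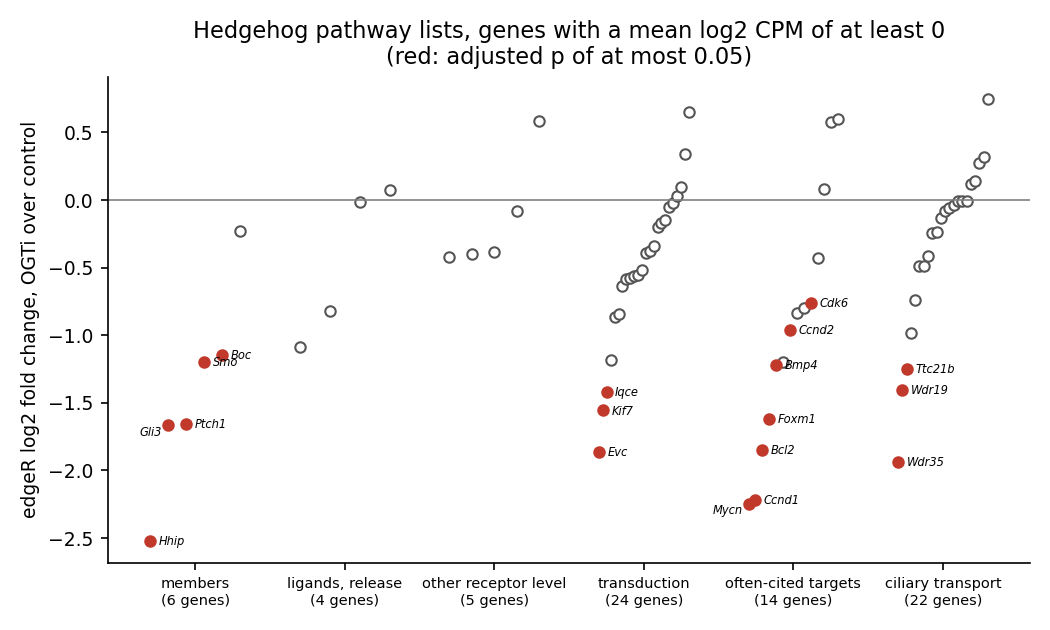
edgeR log2 fold change (vertical axis) of each gene of the members and of the 5 pathway lists with a mean log2 CPM of at least 0, sorted within its list. Red points have an adjusted p of at most 0.05 and all lie below 0. In the members 5 of 6 plotted genes are red, against 0 of 4, 0 of 5, 3 of 24, 7 of 14 and 3 of 22 in the lists from left to right.

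Other quantities moved with these results. OGTi replicate 1 was depleted of long transcripts. Relative to the other OGTi libraries, its longest of 5 length classes lay at a median of -0.49 and its shortest at 0.59 on the log2 scale, whereas in the other 7 libraries the longest class lay between -0.19 and 0.27. The shortest class of those libraries lay between -0.37 (OGTi replicate 4) and 0.11 (control replicate 2). OGTi replicate 4 thus had a trend in the opposite direction, with its longest class at 0.17. The members that fell had lengths of 3569 (Smo), 4428 (Boc), 5161 (Hhip), 7154 (Gli3) and 7304 (Ptch1) bases, and Sufu, which was not called, had 4523. Among the 2211 genes of the longest class (at least 5017 bases, which includes Hhip, Gli3 and Ptch1), 17.4% were called lower, against 14.8% of the 11053 genes with the same minimum mean log2 CPM of 1. Without replicate 1 the log2 fold changes were -1.53 for Gli3 and -2.17 for Hhip, both called (adjusted p of 0.00792 and 0.00563), and Smo was called as well (0.0216). Ptch1 (-1.35, adjusted p 0.0727) and Boc (-0.80, adjusted p 0.122) were then not called, and neither was called without replicate 3 or without replicate 4. With the length trend removed Hhip, Gli3, Ptch1 and Smo were called and Boc was not (0.0538).

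Markers of other liver cells also differed between groups. The summed level of 6 mesothelial and portal fibroblast markers was 68.2 to 184.9 TPM in control and 7.35 to 57.4 TPM in OGTi, nearly all of it from Fbln2, which fell (log2 fold change of -1.96, edgeR adjusted p 0.000834), while 4 of the 6 (Upk3b, Gpm6a, Thy1 and Cd34) were under 1 TPM in every library. The 5 bile duct markers summed to 87.2 to 140.6 TPM in control and 57.2 to 84.1 TPM in OGTi. Krt19, which made up most of it, fell (log2 fold change of -0.66, adjusted p 0.0462), whereas Sox9 rose from 1.3 ± 0.65 to 10.9 ± 8.90 TPM (SD, n = 4, log2 fold change of 3.03, edgeR adjusted p 0.00858). Epcam and Cftr were under 1 TPM throughout. The 7 macrophage markers summed to 22.5 to 42.9 TPM in control and 31.6 to 71.6 TPM in OGTi. Cd68 made up most of it and was the only one called (log2 fold change of 1.5, edgeR adjusted p 0.00154), while Csf1r had -0.03 and C1qb -0.86, and Adgre1 and Ptprc were under 1 TPM throughout. The 7 endothelial markers summed to 1.52 to 2.99 TPM in control and 0.32 to 0.98 TPM in OGTi. Tek and Lyve1 fell (log2 fold changes of -3.36 and -3.17, edgeR adjusted p of 0.00235 and 0.0340), and Pecam1 had 1.33 without passing (0.274). The 6 hepatocyte markers summed to 0.03 to 0.59 TPM in control and 0.59 to 1.64 TPM in OGTi. Cyp2e1 was the only one called (0.050 to 0.745 TPM on average, log2 fold change of 3.98, edgeR adjusted p 0.00591), and Alb had -0.05. None of these markers was at 0 in all 8 libraries. The part of the other cell types in the change of the members was not tested.

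**Figure D4:**
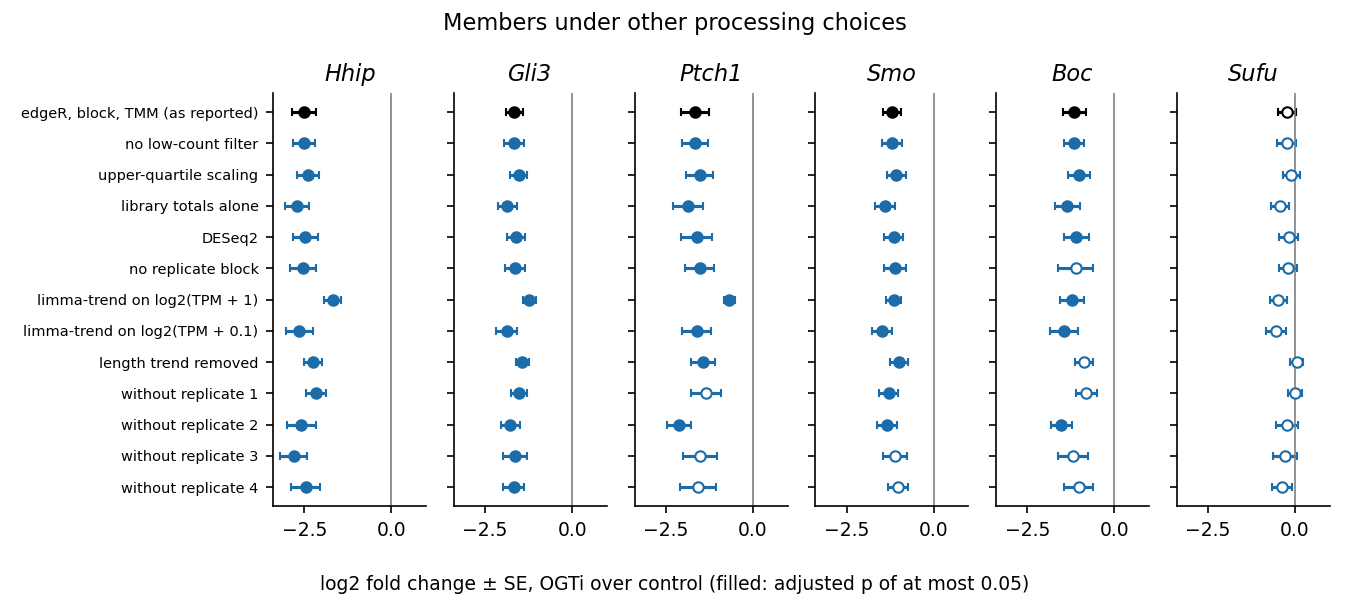
edgeR, DESeq2 or limma log2 fold change ± SE (horizontal axis) of the 6 expressed members under the reported fit (black) and 12 alternatives (blue). Filled points have an adjusted p of at most 0.05. Hhip and Gli3 are filled throughout, whereas Boc is open in 5 alternatives, Ptch1 in 3 and Smo in 2, and Sufu is open throughout, between -0.55 and 0.0465.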

How the data were processed

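RNA-seq tables from 4 control and 4 OGTi cultures were analysed. The authors prepared stranded mRNA libraries, sequenced them as read pairs, aligned reads with Bowtie2 (2.3.5.1) to mm39 (GRCm39) and counted them with RSEM (1.3.1). The deposited tables give, per gene and library, expected counts, TPM (scaled by length and depth) and transcript length in bases. Another deposited table holds the authors' own comparison (counts, normalized counts, fold changes and p-values) and was not used.

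Expected counts were rounded to whole numbers. Genes with a total of at least 10 counts (19963 of 40840) were scaled by TMM and tested with edgeR 4.0.16 (glmQLFit, glmQLFTest, R 4.3.3), with the replicate number as a block, since the study's methods pair treated and control samples. P-values were adjusted over all genes tested (Benjamini-Hochberg, threshold 0.05). SE is the log2 fold change divided by the root of F. Scaled counts are counts over the TMM-adjusted library size times its mean. Same-numbered libraries deviated together (correlations of 0.160, 0.224, 0.105 and 0.318 across genes, which are not independent replicates), against -0.312 to 0.208 for different numbers. OGTi replicate 1 correlated more with control replicate 2 (0.208), and control replicate 3 more with OGTi replicate 4 (0.122), than with its own number. Labels name the samples of a group biological replicates. P-values measure the spread between these cultures. Limits for a count of 0 cover counting error only. The scripts were tested on simulated data. DESeq2 1.42.0 and limma 3.58.1 served as alternatives, besides other scalings, no low-count filter, no block, removal of each library's length trend and leaving out each replicate.

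Gene positions are from GENCODE vM39 (GRCm39) and promoter windows from RefSeq. RefSeq synonyms matched Ift25 to Hspb11. Members and lists were chosen with earlier results of these data known. Named genes were the 9 members, Cdon, Shh, Ihh and Dhh, up to 6 called genes per pathway list by lowest adjusted p, and the 5 genes most correlated with Gli1 and with Gli2. As Gli1 and Gli2 had at most 8 counts per library, the last part was applied to Gli3 instead, chosen after the values were seen. Further genes, marked where they appear, and the markers were named outside this rule. One further item is not reported here.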

Additional observations from a re-analysis of the deposited data

Results flagged for a closer look

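Scaled counts of the members and of the pathway genes named or called were searched, in 45 sets of 4 libraries, for a value standing far off. There were 2 such values, and chance alone flags about 1 set in 20, or 2.25 here. For Evc it was OGTi replicate 2 with 176.4 scaled counts, the remaining OGTi cultures having 50.2 to 60.9. For Foxm1 it was again OGTi replicate 2 with 125.1 scaled counts, the remaining OGTi cultures having 24.3 to 41.0. In each of the 4 pairs, Evc and Foxm1 were nevertheless lower after OSMI-1. No member was found this way.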

How the results depend on the processing

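Hhip, Gli3, Ptch1, Smo and Boc were lower in OGTi in all 12 alternatives. Hhip and Gli3 were called in each, while Ptch1 lost its call in 3, Smo in 2 and Boc in 5. The number of members called was 5 with other scalings, no low-count filter, DESeq2 and limma, and 4 with no replicate block or with the length trend removed. Leaving out one replicate gave from 2 to 5 members called, 8 to 13 pathway list genes and 1905 to 3124 genes in all (843 to 1433 higher, 1062 to 1744 lower), with 6 libraries in each fit. Sufu had a log2 fold change of 0.0465 with the length trend removed, and between -0.36 and 0.00345 when one replicate was left out (0.00345 without replicate 1). limma-trend on TPM called 3456 (1 added) or 3473 genes (0.1 added) lower and 22 pathway list genes with either, and the cause was not tested. Over all genes, scaling moved the median log2 change from 0.01 to 0.13 (upper quartile) and -0.19 (library totals), and the share of higher genes among those called from 44.3% to 54.2% and 30.1%. It was 25.7% and 26.2% with limma and 52.1% with the length trend removed. With no replicate block, 2991 genes were called. Depth limits Gli1, Gli2 and Gas1, which had at most 21 counts each over all 8 libraries.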
